A study of Mus musculus with 20 samples.

Results

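Wild-type mouse Th17 cells grown with hyper-IL-6 were compared with Th17 cells grown with IL-6 itself, across all genes. The members are the 4 libraries whose labels name wild-type cells and one of these agents, with 2 libraries for each. They were taken from the source names, and they belong to a set of 20 libraries in all, of which 10 come from the same culture experiment. Hyper-IL-6, written HDS in the labels, is a designer protein in which IL-6 is fused to a soluble part of its own receptor. At each agent's single dose, no gene was called different between the sorted cells of these cultures by the main test. For most well-expressed genes the interval of the difference lay within 1.5-fold. A library of the IL-6 group went against its label, as described below, and is included in these intervals. Without it the differences of some genes grew, Il17a among them, and those of others shrank, Lif among them.

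All 10 libraries of the culture experiment came from C57BL/6 mice that carry 1 copy of an IL-17F/Thy1.1 reporter, which puts the surface protein Thy1.1 on cells that transcribe Il17f. Naive CD4 T cells from spleen and lymph nodes were cultured for 6 days with irradiated antigen-presenting cells and 2.5 ng/ml TGF-beta. The IL-6 group received 20 ng/ml IL-6 and the hyper-IL-6 group received 63 ng/ml hyper-IL-6, so that agent and mass dose differ together and their parts cannot be told apart. Another culture held receptor-deficient (IL6Ra-/-) cells of the same reporter background, given 63 ng/ml hyper-IL-6, and the naive groups were wild type and IL6Ra-/-, with 2 libraries in each of these groups. PMA and ionomycin were given for 4 h before sorting, and the cultured cells were sorted as CD4+ Thy1.1+, which keeps only cells that had switched on the Il17f reporter. The labels do not say whether replicates came from separate mice or cultures or how many mice a library pools, and the p-values below therefore speak only of library-to-library spread, which may be technical.

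IL-6 signals in 2 ways. In classic signalling IL-6 binds the membrane receptor IL-6Ra (Il6ra), which hepatocytes and some leukocytes, naive T cells among them, carry, and this pair joins the shared signalling chain gp130 (Il6st). In trans-signalling a soluble receptor brings IL-6 to gp130, so that cells without membrane receptor respond too, and hyper-IL-6 mimics this form. In both, gp130-bound JAK kinases phosphorylate STAT3, which with TGF-beta drives Il17a and Il17f in Th17 cells, while SOCS3 feeds back on gp130.

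The 4 libraries held between 32567313 and 46848016 counts assigned to genes, against 20160774 to 46848016 over the 10 libraries. Mitochondrial genes took 1.01 to 1.06% of the counts in the 4 libraries. Replicate libraries of every group differed beyond sampling noise (a mean chi-square per gene of 6.72 to 46.3), so none was a second deposit of another. The 11 CD4 T cell markers were all detected in the cultured cells and summed to 3214 and 3012 CPM (counts scaled to the TMM-adjusted library size) with IL-6 and to 2939 and 2926 CPM with hyper-IL-6.

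One of the 4 libraries went against its label. Genes that separate naive IL6Ra-/- from naive wild-type cells were read in each cultured library. In the fit of all 10 libraries edgeR called 1 gene between the naive genotypes, with 1554 at an unadjusted p under 0.05, and 0 met the rule for a marker (adjusted p under 0.05, log2 difference of at least 3), against 2 by DESeq2. On the 4 naive libraries alone edgeR gave 2 such markers, Nefh and Camk2b. Nefh, a neurofilament gene (GRCm38 chr11:4938754-4948064), was at 0.244 and 0.424 CPM in naive wild-type and at 8.68 and 8.53 CPM in naive IL6Ra-/- cells. In culture it was at 2.44 and 75.7 CPM in the libraries labelled IL-6 replicate 1 and 2, at 2.43 and 2.29 CPM with hyper-IL-6, and at 74.9 and 2.91 CPM in the libraries labelled IL6Ra-/- replicate 1 and 2. The library labelled IL-6 replicate 2 thus sat with the library labelled IL6Ra-/- replicate 1, and the library labelled IL6Ra-/- replicate 2 sat with the wild-type ones. Camk2b was too low in culture to read, at no more than 1.54 CPM.

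On the 4 naive libraries edgeR called 5 genes in all, at any size of difference, and the other 3 are Synj2, Tcn2 and Pisd-ps1. Synj2, an inositol phosphatase gene, was at 52.3 and 70.9 CPM in naive wild-type and at 15.1 and 15.7 CPM in naive IL6Ra-/- cells, and in culture at 20.0 and 7.41 CPM in the libraries labelled IL-6, 26.4 and 27.1 CPM with hyper-IL-6, and 7.74 and 18.7 CPM in those labelled IL6Ra-/-. Tcn2, which encodes a vitamin B12 carrier, was at 34.9 and 35.9 against 11.0 and 10.5 CPM in the naive groups and at 5.09 and 1.13, 5.86 and 5.24, and 1.37 and 5.94 CPM in culture, in the same order. Both thus split the cultured libraries as Nefh did and in the naive direction. Pisd-ps1, a pseudogene whose reads may be shared with other copies, went the other way. It was higher in naive IL6Ra-/- cells (56.2 and 49.3 CPM) than in naive wild-type cells (10.2 and 11.0 CPM), but in culture it was lowest in the libraries labelled IL-6 replicate 2 and IL6Ra-/- replicate 1 (12.7 and 14.7 CPM), against 18.6 to 23.7 CPM in the other 4. Nefh, Camk2b, Tcn2 and Pisd-ps1 all lie on chromosome 11, and Synj2 lies on chromosome 17. Genes of the same chromosome may be linked, which was not tested, so these may not be separate checks of the label.

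Some genes not called between the naive genotypes, picked after their values in culture were seen, set the same libraries apart. Of these, Slc35e4 also lies on chromosome 11 and Wdfy1 lies on chromosome 1. Slc35e4, a solute carrier gene (naive adjusted p 0.0863 by edgeR), was at 13.99 and 5.57 CPM in the libraries labelled IL-6, at 15.6 and 14.6 CPM with hyper-IL-6, and at 6.43 and 14.98 CPM in those labelled IL6Ra-/-. Wdfy1, with a naive log2 difference of 0.35 (adjusted p 0.769), was at 28.2 and 60.01, 28.1 and 29.4, and 63.7 and 27.5 CPM. Gm47283, a gene on the Y chromosome, was at 17.5 and 1.10, 18.4 and 18.4, and 0.28 and 22.0 CPM in culture, and at 23.1 and 10.4 against 2.27 and 1.17 CPM in the naive groups (adjusted p 0.137). Counts on Il6ra do not check the genotype here, since they were similar in all groups of cultured cells. Labels were kept as deposited, no library was moved, and values without the library labelled IL-6 replicate 2 stand beside the results below.

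**Figure D1:**
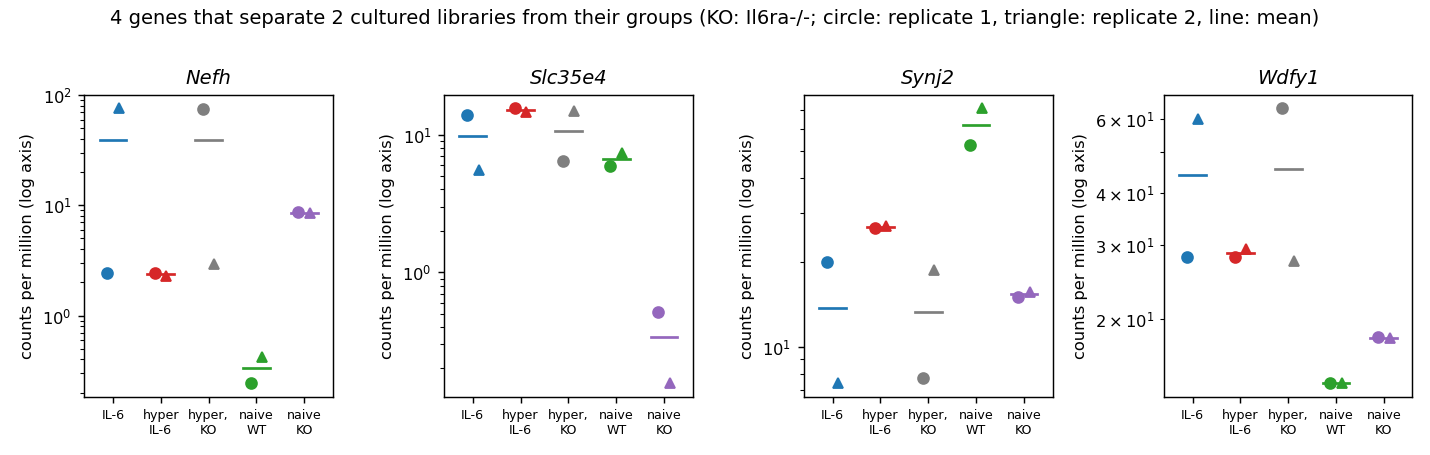
CPM on a log axis of Nefh, Slc35e4, Synj2 and Wdfy1 in the 6 cultured and 4 naive libraries, with circles for replicate 1, triangles for replicate 2 and lines for group means. In every panel the triangle of the IL-6 group lies near the circle of the IL6Ra-/- culture (75.7 and 74.9 CPM for Nefh), and both hyper-IL-6 wild-type libraries lie together (2.43 and 2.29 CPM).

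The first question was whether any gene differed between hyper-IL-6 and IL-6. Of 14926 genes tested, edgeR's quasi-likelihood test with Benjamini-Hochberg adjustment called 0 (0%), and every adjusted p was 1. At an unadjusted p under 0.05 there were 226 genes (1.51%), 122 higher (0.817%) and 104 lower (0.697%) with hyper-IL-6. Where no gene differs, the expected share equals the threshold, and 1.51% is below it. The main test may thus miss real differences here, and the reason for the low share was not tested. DESeq2 on the same 10 libraries called 5 genes (0.0335%), and on the 4 compared libraries alone 25 of 13685 (0.183%). For 4003 genes (26.8%) the hyper-IL-6 libraries did not overlap the IL-6 libraries, 1978 higher (13.3%) and 2025 lower (13.6%). Against naive wild-type cells, which both cultures share as the reference, the same test called 10537 genes (70.6%) with IL-6 and 10489 genes (70.3%) with hyper-IL-6. In these bulk samples fewer cells of a type and less RNA per cell cannot be told apart.

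A missed threshold does not show that the cultures are alike, so the intervals were counted. Each gene's spread in them was estimated over all 5 groups, so a wide interval can come from the naive or IL6Ra-/- libraries. Ctla4, whose interval is wide, was at 50.6 and 18.6 CPM in the naive wild-type libraries. The 95% interval of the difference lay within a 2-fold change for 10663 genes (71.4%) and within a 1.5-fold change for 8629 (57.8%). Among the 8047 genes with a mean log2 CPM of at least 4, the intervals of 7935 lay within 2-fold and of 7552 within 1.5-fold. The median absolute log2 difference between the hyper-IL-6 libraries was 0.07 over 10104 genes, and that between the IL-6 libraries was 0.11. The library labelled IL-6 replicate 1 differed from the hyper-IL-6 libraries by 0.08 and 0.08, and the library labelled IL-6 replicate 2 by 0.09 and 0.09. Libraries of different agents thus differed more than the hyper-IL-6 pair and less than the IL-6 pair. The IL-6 pair, like the intervals above, includes the library that went against its label. Its difference may therefore not be one between replicates of the same kind.

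**Figure D2:**
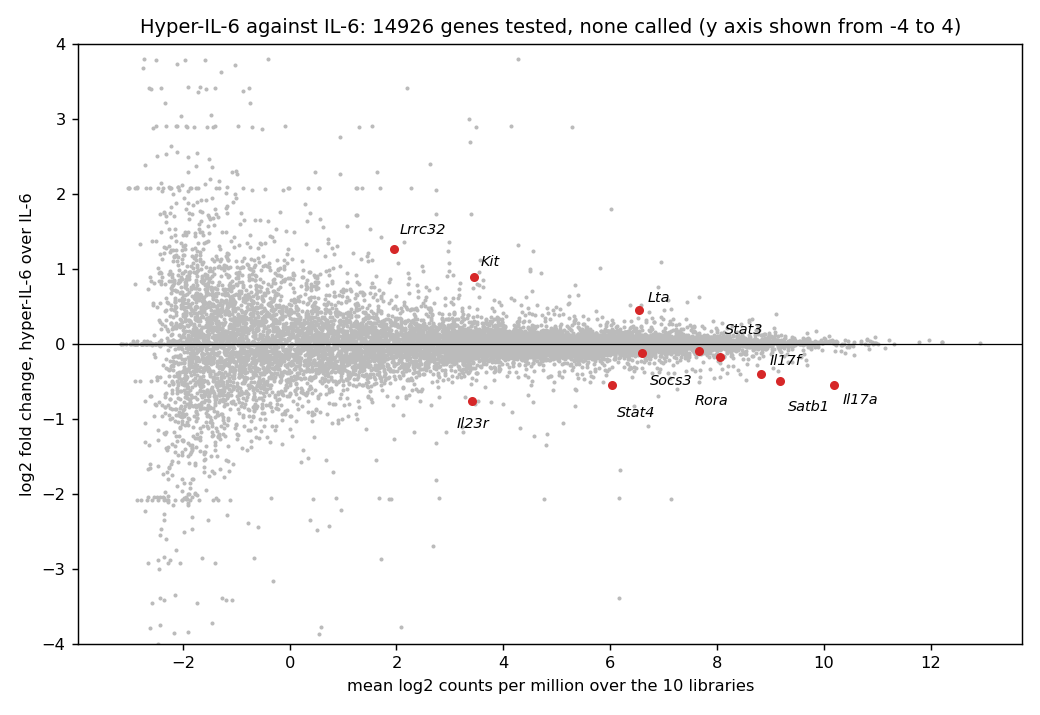
Log2 fold change of hyper-IL-6 over IL-6 (y axis) against mean log2 CPM over the 10 libraries (x axis) for the 14926 genes tested, of which 27 lie outside the range shown, with 11 named genes in red. Points narrow around 0 toward high CPM, Kit and Lrrc32 lie above, and Il17a, Il23r, Satb1 and Stat4 lie below.

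The IL-6 receptor chains were read first, since hyper-IL-6 does not need the membrane receptor. Il6ra was at 37.1 and 30.6 CPM with IL-6 and at 39.8 and 39.2 CPM with hyper-IL-6. Its log2 difference was 0.22 (95% interval -0.17 to 0.61), and 0.09 without the library labelled IL-6 replicate 2. Il6st, which encodes gp130, was at 57.5 and 71.4 CPM with IL-6 and at 67.4 and 60.3 CPM with hyper-IL-6. Its libraries overlapped and its log2 difference was -0.01 (-0.35 to 0.32). Per kilobase of exon, Il6ra stood at 3.92 and 4.57 CPM and Il6st at 5.81 and 5.75 CPM, with IL-6 and with hyper-IL-6. Both had fallen far from naive wild-type cells in each culture, Il6ra by 3.35 and 3.13 and Il6st by 3.19 and 3.20 on the log2 scale (edgeR adjusted p of at most 7.89e-08).

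In the gene lists below, a call is an edgeR adjusted p under 0.05, and the counts at an unadjusted p under 0.05 and by DESeq2 on the 4 libraries stand beside it. Over all genes tested, those 2 shares were 1.51% and 0.183%, against which each list is to be read. Of the 10 IL-6 family receptors listed, 6 were tested and 0 were called, with 0 at an unadjusted p under 0.05 and 0 by DESeq2. Il27ra, the receptor of IL-27, was at 83.5 and 93.6 CPM with IL-6 and at 90.9 and 86.3 CPM with hyper-IL-6, a log2 difference of 0.00 (-0.20 to 0.20). Il12rb1, the chain shared by the IL-12 and IL-23 receptors, was at 212 and 198 against 165 and 202 CPM, a difference of -0.16 (-0.49 to 0.17). The proteases that shed IL-6Ra from the membrane had small differences with narrow intervals, Adam10 with a difference of 0.01 (-0.21 to 0.22) and Adam17 with 0.02 (-0.15 to 0.20). Of the 5 genes tested for these sheddases and their partners, 0 were called, with 0 at an unadjusted p under 0.05 and 0 by DESeq2.

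Among the ligands of the family, 4 of 8 were tested and 0 called, with 1 at an unadjusted p under 0.05 and 0 by DESeq2. Lif, which encodes leukaemia inhibitory factor, another ligand of gp130, was at 183 and 263 CPM with IL-6 and at 132 and 144 CPM with hyper-IL-6. Its libraries did not overlap and its log2 difference was -0.69 (-1.30 to -0.09, unadjusted p 0.0289), or -0.41 without the library labelled IL-6 replicate 2. In the IL6Ra-/- culture Lif was at 282 and 181 CPM, above both wild-type hyper-IL-6 libraries. Osm, the gene of oncostatin M, was at 23.9 and 29.4 against 24.8 and 27.1 CPM, a difference of -0.04 (-0.56 to 0.48).

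Of the 11 genes of the JAK kinases and STATs, all were tested and 0 were called by the main test, with 1 at an unadjusted p under 0.05 and the same gene by DESeq2, and 10 of their intervals lay within 1.5-fold. Stat3, the main STAT of IL-6, was at 251 and 220 CPM with IL-6 and at 209 and 209 CPM with hyper-IL-6, a log2 difference of -0.17 (-0.54 to 0.20). Jak1 had a difference of 0.02 (-0.20 to 0.25) and Jak2 of 0.01 (-0.20 to 0.22).

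Stat4 was the exception of that list and had the smallest p of all genes. STAT4 transmits IL-12 and IL-23 signals, and the gene lies at GRCm38 chr1:51987148-52107189. It was at 44.3 and 47.7 CPM with IL-6 and at 29.6 and 33.2 CPM with hyper-IL-6, or 46.0 ± 2.39 against 31.4 ± 2.55 CPM (SD, n = 2 each). The libraries did not overlap, and both libraries of the IL6Ra-/- culture, at 49.9 and 50.2 CPM, stood with the IL-6 ones. The log2 difference was -0.55 (-0.76 to -0.35), which edgeR did not call (unadjusted p 0.00011, adjusted p 1) and DESeq2 did (adjusted p 0.00877 on all 10 libraries, 0.0041 on the 4). Without the library labelled IL-6 replicate 2 it was -0.50.

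Genes that STAT3 or STAT5 induce and that damp cytokine signals were looked at next, and 0 of the 27 members of the list of STAT3 feedback and target genes were called, with 2 at an unadjusted p under 0.05 and 1 by DESeq2. In the hyper-IL-6 libraries 6 were wholly higher and 8 wholly lower, beside 13.3 and 13.6% of all genes, and the median log2 difference was -0.03 against 0.00 over all genes. The promoters of Socs3 and Cish are shown because their start regions hold the letters of the STAT motif TTCNNNGAA. They are the feedback inhibitors that do so among those of the list with a promoter sequence. Socs2 had no promoter sequence to search. Both strands were searched, which for this palindrome give the same matches. The sequences are from RefSeq, build GRCm38.p6, and run 5′ to 3′ on the gene's strand from 250 bases before the start site to 50 bases after it, with the motif in capitals. Socs3 is on the minus strand at chr11:117969317-117969616 and Cish on the plus strand at chr9:107296409-107296708.
Socs3: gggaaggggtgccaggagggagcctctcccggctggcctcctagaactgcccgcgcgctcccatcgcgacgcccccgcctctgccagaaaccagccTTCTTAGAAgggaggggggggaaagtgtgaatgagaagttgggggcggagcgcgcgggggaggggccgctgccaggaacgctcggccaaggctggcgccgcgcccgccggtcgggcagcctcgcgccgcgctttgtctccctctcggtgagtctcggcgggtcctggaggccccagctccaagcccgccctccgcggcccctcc
Cish: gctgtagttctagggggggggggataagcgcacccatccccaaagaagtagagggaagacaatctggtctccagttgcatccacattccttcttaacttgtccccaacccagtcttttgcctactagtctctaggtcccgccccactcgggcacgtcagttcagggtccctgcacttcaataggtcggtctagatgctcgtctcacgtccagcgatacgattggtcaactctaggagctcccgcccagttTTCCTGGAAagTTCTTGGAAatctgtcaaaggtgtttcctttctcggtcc

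The Socs3 window holds 1 match and the Cish window 2. Of all 32851 promoter windows of this length in the table, 8.3% hold the motif, and of the 13200 windows of the genes tested, 6.83%. Of the 27 genes of the list, 20 have a window, and some have more than 1. Of their 24 windows, 5 hold the motif (20.8%), a share that was not tested against the others. Counted by gene, 4 of the 20 hold a match, namely Socs3, Cish, Bcl6 and Icam1. A match is a description of these letters and not a measured site. No gene was called by the main test, so no share could be given for genes higher or lower with hyper-IL-6.

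Socs3, the feedback inhibitor that binds gp130, was at 28.2 and 26.4 CPM with IL-6 and at 22.8 and 27.5 CPM with hyper-IL-6. Its libraries overlapped and its log2 difference was -0.12 (-0.63 to 0.38). Cish, which IL-2 and STAT5 induce, was at 273 and 303 against 314 and 331 CPM, not overlapping, with a difference of 0.16 (-0.09 to 0.42). Socs2, another STAT5-induced inhibitor, was at 86.2 and 87.3 against 103 and 120 CPM, with a difference of 0.36 (0.06 to 0.66, unadjusted p 0.0224). Bcl3, a nuclear NF-kB regulator that STAT3 induces, was at 50.5 and 50.6 against 45.8 and 47.2 CPM (-0.12, -0.98 to 0.74). Pim1, a survival kinase, stood at 403 and 400 against 425 and 389 CPM, a difference of 0.02 (-0.30 to 0.34).

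The Th17 programme was then read gene by gene. All cultured cells had been sorted for the Il17f reporter, so a difference in how many cells switched it on cannot appear here. All 24 members were tested and edgeR called 0, with 2 at an unadjusted p under 0.05 and 1 by DESeq2. The hyper-IL-6 libraries were wholly lower for 10 and wholly higher for 3, beside 13.6 and 13.3% of all genes, and the median log2 difference was -0.22 (-0.10 without the library labelled IL-6 replicate 2) against 0.00 over all genes. Il17a, the signature cytokine, was at 2489 and 1782 CPM with IL-6 and at 1400 and 1508 CPM with hyper-IL-6. The groups did not overlap, but the IL-6 libraries differed from each other by about as much as the group means did. The log2 difference was -0.55 (-1.08 to -0.03, unadjusted p 0.0409, adjusted p 1 by edgeR), and -0.78 without the library labelled IL-6 replicate 2. In the IL6Ra-/- culture Il17a was at 1714 and 2815 CPM, so its level was higher in the libraries labelled IL-6 replicate 1 and IL6Ra-/- replicate 2 than in the other 4.

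Il17f, at whose locus the sorting reporter reads, was at 977 and 642 CPM with IL-6 and at 588 and 640 CPM with hyper-IL-6. Its difference was -0.40 (-0.90 to 0.10) with all libraries and -0.67 without the library labelled IL-6 replicate 2. Il21, a Th17 and follicular helper cytokine that sustains the programme, was at 620 and 415 against 408 and 381 CPM, with -0.39 (-0.84 to 0.06) and -0.65. For both genes the library labelled IL-6 replicate 2 stood close to the hyper-IL-6 libraries and the library labelled IL-6 replicate 1 above all 3.

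Il23r and Il1r1 were lower in both hyper-IL-6 libraries than in both IL-6 libraries, without a call. Il23r, the IL-23 receptor chain, was at 27.8 and 13.6 CPM with IL-6 and at 13.1 and 11.3 CPM with hyper-IL-6. Its log2 difference was -0.77 (-1.54 to 0.01), or -1.19 without the library labelled IL-6 replicate 2, and the IL6Ra-/- culture had 14.6 and 21.4 CPM. Il1r1, the IL-1 receptor, was at 171 and 144 against 134 and 120 CPM, with -0.31 (-0.63 to 0.00) and -0.43. Here too the difference rests more on the library labelled IL-6 replicate 1, which was the highest of the 4 for both genes.

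The transcription factors Rora and Irf4 of the programme were at close levels. Rora, a nuclear receptor, was at 348 and 359 CPM with IL-6 and at 343 and 319 CPM with hyper-IL-6, a log2 difference of -0.10 (-0.36 to 0.17). Irf4, an early factor of the programme, was at 2404 and 2387 against 2402 and 2321 CPM (-0.02, -0.85 to 0.81).

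Other regulators of the list fell on either side of 0. Batf, the partner of IRF4, was at 88.0 and 85.4 against 69.5 and 67.2 CPM, a difference of -0.34 (-0.98 to 0.29), which DESeq2 called on the 4 libraries alone (adjusted p 0.0387). Hif1a, the hypoxia factor, was at 1118 and 991 against 899 and 889 CPM, a difference of -0.24 (-0.44 to -0.03, unadjusted p 0.0263). Maf was at 206 and 226 against 236 and 246 CPM (0.16, -0.22 to 0.53), and Ahr at 62.6 and 59.8 against 51.4 and 61.3 CPM (-0.12, -0.38 to 0.14). Ccl20, a chemokine of Th17 cells, was at 317 and 272 against 353 and 335 CPM (0.22, -0.13 to 0.58), and its receptor Ccr6 at 28.5 and 50.2 against 29.6 and 32.5 CPM (-0.34, -1.06 to 0.38).

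**Figure D3:**
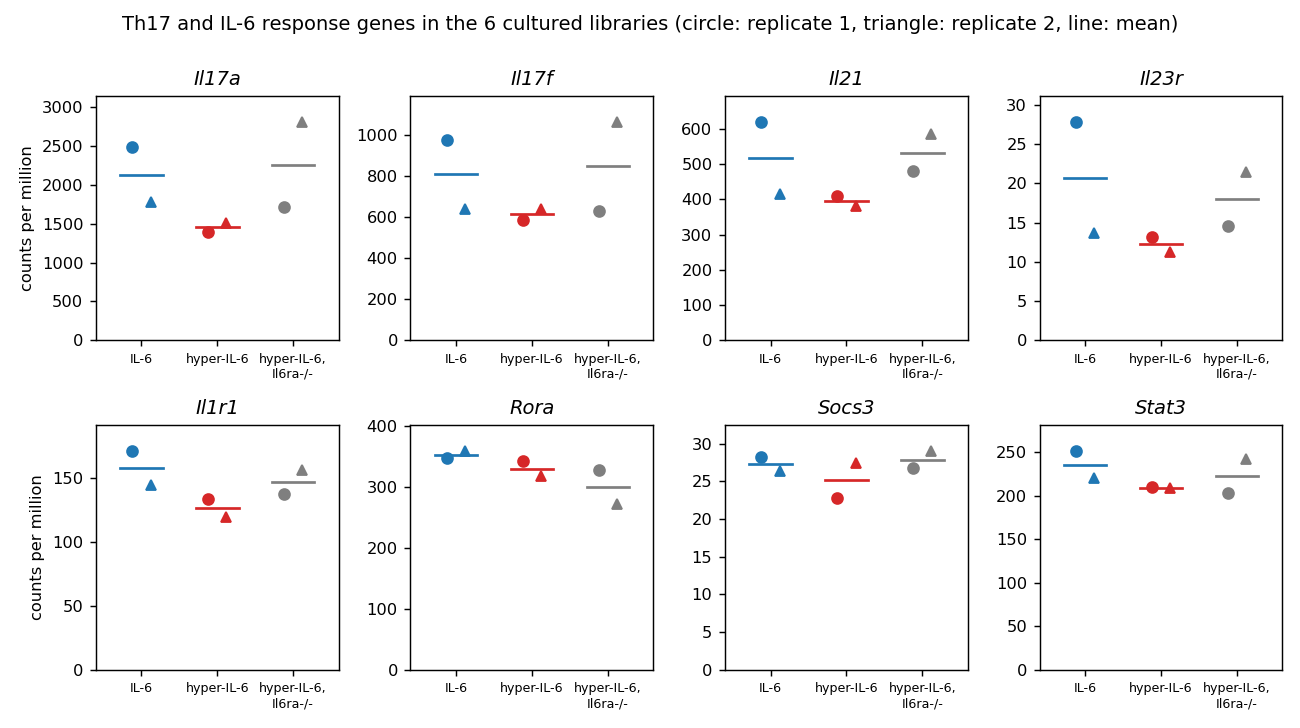
CPM of 8 Th17 and IL-6 response genes in the 6 cultured libraries, with circles for replicate 1, triangles for replicate 2, lines for group means and axes from 0. For Il17a, Il17f, Il21 and Il23r the circle of the IL-6 group and the triangle of the IL6Ra-/- culture lie highest (2489 and 2815 CPM for Il17a).

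Genes that mark more or less inflammatory Th17 cells were not called either. Of 21 genes of pathogenic Th17 cells, 0 were called, with 3 at an unadjusted p under 0.05 and 2 by DESeq2, and 3 were wholly higher and 7 wholly lower with hyper-IL-6 (13.3 and 13.6% over all genes), with a median of -0.01 (-0.19 without the library labelled IL-6 replicate 2). Csf2, which encodes GM-CSF, was low throughout, at 3.79 and 0.741 against 2.76 and 4.16 CPM, and Ifng was at 8.27 and 4.65 against 6.67 and 20.97 CPM, with differences of 0.59 (-0.91 to 2.08) and 1.09 (-0.21 to 2.38). Tbx21, the Th1 factor T-bet, was at 13.1 and 11.3 against 7.81 and 19.9 CPM, overlapping, and Il22 stood at no more than 1.64 CPM in the 4 libraries. These intervals are wide, so that the data do not bound the difference for these genes within 2-fold.

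Lag3, an inhibitory receptor of that list, was at 319 and 326 CPM with IL-6 and at 256 and 255 CPM with hyper-IL-6. Its libraries did not overlap, its log2 difference was -0.34 (-0.62 to -0.06, unadjusted p 0.0219), and DESeq2 called it on the 4 libraries alone (adjusted p 0.00105). Lrmp was at 90.9 and 107 against 125 and 122 CPM, a difference of 0.32 (0.06 to 0.59). Of the 8 genes of non-pathogenic Th17 cells, 0 were called by edgeR or DESeq2 and 0 had an unadjusted p under 0.05, while 4 were wholly higher and 0 wholly lower (13.3 and 13.6% over all genes), with a median of 0.38. Of the 8 intervals, 4 lay within 2-fold. Il1rn and Il9 held only 584 and 161 counts over the 10 libraries, and their fold intervals were wide (0.85 to 6.99 and 0.90 to 4.59). Il10, the anti-inflammatory cytokine of this list, was at 9.74 and 4.80 against 13.03 and 10.99 CPM, not overlapping. Its difference was 0.72 (-0.21 to 1.64), and 0.30 without the library labelled IL-6 replicate 2. In the IL6Ra-/- culture Il10 was at 5.28 and 12.0 CPM.

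Regulatory T cell genes share TGF-beta as an inducer with Th17 cells, and IL-6 is known to oppose Foxp3. Of 20 genes listed, 19 were tested and 0 called, with 2 at an unadjusted p under 0.05 and 3 by DESeq2. Of these 9 were wholly higher and 2 wholly lower with hyper-IL-6, beside 13.3 and 13.6% of all genes, and the median was 0.29 (0.28 without the library labelled IL-6 replicate 2). Foxp3 itself was low, at 3.11 and 5.93 CPM with IL-6 and at 5.86 and 5.51 CPM with hyper-IL-6, with overlapping libraries and a difference of 0.35 (-0.26 to 0.95). Il2ra, the high-affinity chain of the IL-2 receptor, was at 1516 and 1209 against 1437 and 1423 CPM, a difference of 0.07 (-0.18 to 0.32).

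Within that list single genes went further and in both directions. Lrrc32, which encodes GARP, the surface carrier of latent TGF-beta, was at 2.59 and 1.51 CPM with IL-6, at 4.67 and 5.27 CPM with hyper-IL-6 and at 2.52 and 2.83 CPM in the IL6Ra-/- culture. Its log2 difference of 1.26 (0.64 to 1.89, unadjusted p 0.00107, adjusted p 1 by edgeR) was 0.94 without the library labelled IL-6 replicate 2. Nt5e, the ectoenzyme CD73, was at 191 and 204 against 239 and 246 CPM (0.30, -0.01 to 0.60). Nrp1 and Ctla4 were lower, Nrp1 at 153 and 153 against 125 and 114 CPM (-0.36, -0.62 to -0.10) and Ctla4 at 275 and 279 against 204 and 229 CPM (-0.36, -1.07 to 0.36). DESeq2 on the 4 libraries alone called Nt5e (adjusted p 0.0348), Nrp1 (0.00961) and Ctla4 (0.00961), and did not call Lrrc32 (0.117).

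The TGF-beta pathway, whose ligand was given at the same dose to both cultures, had 20 members tested and 0 called. At an unadjusted p under 0.05 there were 3, and DESeq2 called 2 (1.51 and 0.183% over all genes). Of the members 7 were wholly higher and 2 wholly lower (13.3 and 13.6% over all genes), with a median of 0.06. Tgfbr1, a receptor kinase, was at 116 and 148 CPM with IL-6 and at 174 and 180 CPM with hyper-IL-6, a difference of 0.43 (0.07 to 0.79, unadjusted p 0.0248), or 0.61 without the library labelled IL-6 replicate 2. In the IL6Ra-/- culture it was at 132 and 96.2 CPM. Ski, a repressor of SMAD proteins, was at 340 and 336 against 273 and 286 CPM (-0.27, -0.52 to -0.03). Tgfbr2 and Smad3 were level, with differences of 0.08 (-0.17 to 0.32) and -0.02 (-0.33 to 0.30). DESeq2 on the 4 libraries alone called Tgfbr1 (adjusted p 0.0496) and Ski (0.0387).

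Among 26 cytokine genes tested, 0 were called, with 3 at an unadjusted p under 0.05 and 1 by DESeq2, and 5 were wholly higher and 6 wholly lower (13.3 and 13.6% over all genes). Lta, which encodes lymphotoxin alpha, was at 115 and 130 CPM with IL-6 and at 154 and 182 CPM with hyper-IL-6, a difference of 0.45 (0.22 to 0.69, unadjusted p 0.00158, DESeq2 adjusted p 0.00987 on the 4 libraries), and the IL6Ra-/- culture had 140 and 126 CPM. Its membrane partner Ltb was at 152 and 208 against 226 and 221 CPM (0.31, -0.0018 to 0.63). Il2 was at 891 and 370 against 559 and 564 CPM, so that both hyper-IL-6 libraries lay between the IL-6 libraries. Tnf was at 147 and 108 against 134 and 151 CPM, also overlapping (0.16, -0.25 to 0.58).

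Of the chemokine receptors, Ccr4 came nearest to a difference. It was at 133 and 141 CPM with IL-6 and at 170 and 177 CPM with hyper-IL-6, and its log2 difference was 0.34 (0.12 to 0.56, unadjusted p 0.00628, DESeq2 adjusted p 0.0105 on the 4 libraries). The 24 chemokine and chemokine receptor genes tested had 0 called, with 1 at an unadjusted p under 0.05 and 1 by DESeq2, and a median of -0.09 (0.03 without the library labelled IL-6 replicate 2).

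The genes with the clearest separation included several outside these lists, and Kit, Ms4a6b, Filip1l and Serpine2 are named here after their values were seen. Kit, the stem cell factor receptor (GRCm38 chr5:75574916-75656722), was at 12.2 and 13.9 CPM with IL-6, at 27.1 and 21.4 CPM with hyper-IL-6 and at 14.1 and 13.1 CPM in the IL6Ra-/- culture. That is 13.1 ± 1.20 against 24.2 ± 4.02 CPM (SD, n = 2 each), a 1.85-fold higher level (95% interval 1.44 to 2.38). EdgeR gave it an unadjusted p of 0.000233 and an adjusted p of 1, and DESeq2 an adjusted p of 0.0307 on all 10 libraries. Without the library labelled IL-6 replicate 2 the level was 1.98-fold higher.

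Satb1, a chromatin organiser of the naive and central memory list, was at 201 and 227 CPM with IL-6 and at 146 and 156 CPM with hyper-IL-6, a log2 difference of -0.50 (-0.74 to -0.26). Ms4a6b, a tetraspan membrane protein of T cells, was at 77.05 and 72.8 against 55.7 and 52.1 CPM, with -0.48 (-0.69 to -0.26). Filip1l was low, at 3.83 and 3.62 against 1.93 and 2.27 CPM, with -0.83 (-1.17 to -0.49). These 3 genes with Stat4 and Kit are the 5 that DESeq2 called on the 10 libraries, and on the 4 libraries alone it called these except Filip1l. Without the library labelled IL-6 replicate 2 their differences kept the sign, at -0.41 for Satb1, -0.52 for Ms4a6b and -0.87 for Filip1l.

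Serpine2, a secreted protease inhibitor, was at 67.9 and 80.5 CPM with IL-6, at 50.7 and 46.0 CPM with hyper-IL-6 and at 78.8 and 78.2 CPM in the IL6Ra-/- culture, so that the hyper-IL-6 wild-type libraries were the lowest of the 6. Its log2 difference was -0.62 (-1.41 to 0.18), and DESeq2 called it on the 4 libraries alone (adjusted p 0.000413). Cd247, the zeta chain of the T cell receptor complex, was at 314 and 313 against 259 and 253 CPM (-0.29, -0.49 to -0.10) and was called by DESeq2 on the 4 libraries alone (adjusted p 0.00961), while Cd3e stood at 161 and 177 against 169 and 172 CPM (0.01, -0.19 to 0.21). Cyp1a1, a target gene of the aryl hydrocarbon receptor, was at 8.98 and 10.7 CPM with IL-6 and at 54.4 and 11.1 CPM with hyper-IL-6, a difference carried by 1 library.

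**Figure D4:**
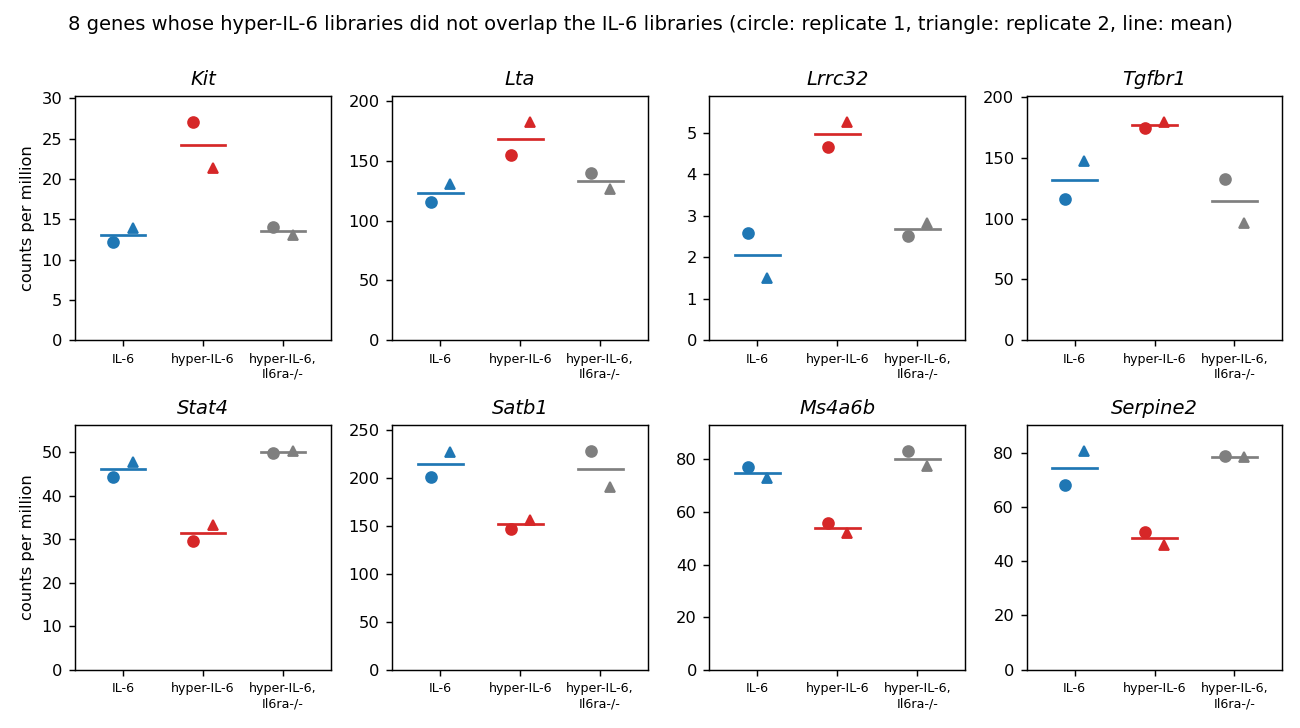
CPM of 8 genes in the 6 cultured libraries, with circles for replicate 1, triangles for replicate 2, lines for group means and axes from 0. In each panel both wild-type hyper-IL-6 libraries lie outside the range of the IL-6 libraries and of the IL6Ra-/- culture, as for Kit at 27.1 and 21.4 against 12.2 to 14.1 CPM.

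Genes of division and metabolism had median differences from -0.09 to 0.01. In the lists of this paragraph and the next, DESeq2 on the 4 libraries called 0 genes too. All 28 cell cycle genes were tested, 0 were called, 0 had an unadjusted p under 0.05, the median was 0.00 and 27 intervals lay within 1.5-fold. Mki67, a proliferation marker, was at 610 and 476 CPM with IL-6 and at 512 and 612 CPM with hyper-IL-6. For sterol and fatty acid synthesis, 0 of 26 were called, 0 had an unadjusted p under 0.05, the median was 0.01 and 23 intervals lay within 1.5-fold. Of 24 glycolysis and hypoxia genes, 0 were called, 1 had an unadjusted p under 0.05, 0 were wholly higher and 11 wholly lower (13.3 and 13.6% over all genes), with a median of -0.09 (-0.13 without the library labelled IL-6 replicate 2). Ldha, lactate dehydrogenase, was at 1775 and 1650 against 1575 and 1645 CPM.

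Lists on activation, defence and survival gave no call either, with at most 1 gene of each at an unadjusted p under 0.05. The activation-induced genes, 27 tested, had a median of 0.04, and Myc among them was at 804 and 742 against 827 and 821 CPM. For 27 interferon-stimulated genes the median was 0.04, for 14 genes of MHC class I presentation -0.04, and for 13 genes of the BCL-2 family 0.01, beside 0.00 over all genes. Reads of the H2-Q and Bcl2a1 copies in the latter lists can be split between near-identical genes, so their single values are uncertain.

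**Figure D5:**
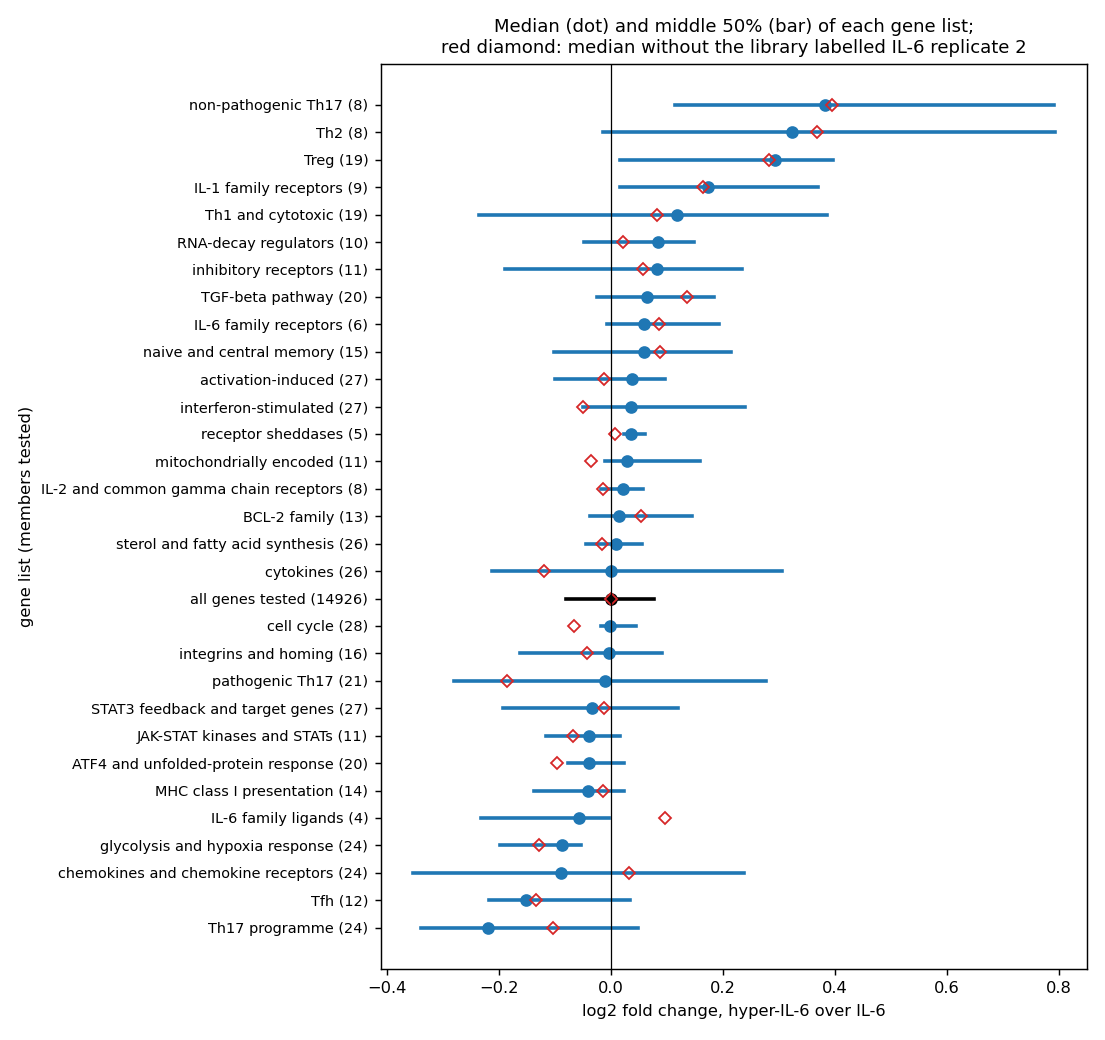
Median log2 fold change of hyper-IL-6 over IL-6 (dot) and its middle 50% (bar) for each gene list, with the number of members tested in brackets, all genes in black and red diamonds for the median without the library labelled IL-6 replicate 2. The non-pathogenic Th17 list lies furthest to the right (median 0.38, 8 genes, 4 with an interval within 2-fold). The Th17 programme lies furthest to the left (-0.22, 24 genes, and -0.10 without that library).

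Because 2 cultured libraries went against their labels, the comparison was also made without them, an alternative chosen after the data were seen. With the 5 groups and without the libraries labelled IL-6 replicate 2 and IL6Ra-/- replicate 2, edgeR called 0 of 15394 genes, with 297 at an unadjusted p under 0.05. With the cultured groups alone and the same libraries left out, it called 124 of 14347 genes (0.864%), 42 higher (0.293%) and 82 lower (0.572%), and DESeq2 called 74, all among the 124. In that fit the spread comes only from the pair of hyper-IL-6 libraries, with 1 residual degree of freedom, and the IL-6 side is 1 library assumed to vary like that pair. The calls therefore compare that library with the hyper-IL-6 pair and have no replicate check on the IL-6 side.

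The genes of this paragraph are among those called in this fit, and only their differences are given. Of the Th17 genes, Il17a was lower by 0.77, Il17f by 0.67, Il21 by 0.65 and Il23r by 1.18 on the log2 scale. Il1r1, Batf and Hif1a were also lower. Ikzf3, which encodes Aiolos, was higher by 0.49. Other lists, such as the cytokines and pathogenic Th17 genes, held called genes too. Kit differed by 0.99 and Stat4 by -0.50. The list of TGF-beta genes had Tgfbr1 higher by 0.61 and Ski lower by 0.28. Il2 overlapped between the groups once the library labelled IL-6 replicate 2 was counted.

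A further reading avoided any choice between the doubted libraries, again chosen after the data were seen. The wild-type hyper-IL-6 libraries were set against the other 4 cultured libraries, which mix IL-6 given to wild-type cells with hyper-IL-6 given to IL6Ra-/- cells, so that agent and genotype cannot be told apart in it. EdgeR called 0 of 13878 genes, with 507 at an unadjusted p under 0.05 (3.65%), and DESeq2 called 29. The smallest edgeR adjusted p, 0.0769, was shared by Serpine2, Kit, Ms4a6b and Stat4. Their differences were -0.66, 0.86, -0.53 and -0.61, close to those against the IL-6 libraries, which are among the 4, and Il17a had -0.60.

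Markers of other cell types were low in the sorted cells and their part in the differences was not tested. The 10 markers found for CD8, NK and gamma-delta T cells summed to 14.1 to 16.2 CPM with IL-6 and to 18.8 to 20.1 CPM with hyper-IL-6, with Ncr1 at 0 in all 4 libraries and 7 genes under 1 CPM. The 9 B cell markers summed to 3.41 to 4.84 and to 4.82 to 6.91 CPM, with 8 under 1 CPM. The 18 myeloid and dendritic markers summed to 28.4 to 30.0 and to 24.4 to 49.6 CPM, and Lyz2 among them was at 0.883 and 9.13 against 18.4 and 0.474 CPM. The 7 erythroid markers summed to at most 0.208 CPM.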

How the data were processed

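RNA was sequenced in 4 libraries of wild-type Th17 cells (IL-6 or hyper-IL-6), 2 of cultured IL6Ra-/- cells and 4 of naive cells. Total RNA was extracted with a Qiagen miRNeasy micro kit, per the labels' protocols. The library kit, annotation release and strand setting are not given in the sources used here, so a gene and an antisense partner may share reads. The authors deposited 1 table of raw read counts per gene for each library. Per the submitters' processing notes, the builds were GRCm38 and mm10 and the tools named, in no stated order, were HTSeq (version 0.7.2), STAR (version 2.5.3), SAMtools (version 0.1.18), R (version 3.4.3) and DESeq2 (version 1.18.1).

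Of the 39179 gene IDs, 37607 matched a GENCODE M21 symbol, and the 5 summary rows of each table entered neither the library sizes nor any test. In the 4 libraries, 21.8 to 23.6% of the reads assigned to a gene, to no gene or to several genes fell on no gene. Counts were tested in R 4.3.3 with edgeR 4.0.16 (filterByExpr, TMM, quasi-likelihood F test, Benjamini-Hochberg, threshold 0.05) in 1 fit over the 5 groups of 2 libraries, with 5 residual degrees of freedom. The contrast was wild-type hyper-IL-6 minus wild-type IL-6. CPM values are counts scaled to the TMM-adjusted library size. Intervals are 95% intervals from the same fit. DESeq2 1.42.0 was an alternative. The edgeR and DESeq2 fits of the main contrast on all 10 libraries were tested on simulated data. The other settings and contrasts were not. With 32567313 counts or more per library, counting error is small for genes above a few CPM. The precision is limited by the number of libraries and by a spread taken over all 5 groups, the naive ones included.

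The genes named are 24 fixed genes, up to 6 members of each gene list by smallest p, and the called genes with the largest differences or levels, of which there were none. Some of the fixed genes and list members are not reported here. Batf, Bcl6, Camk2b, Cd3e, Ctla4, Cyp1a1, Filip1l, Gm47283, Icam1, Il2, Irf4, Jak1, Jak2, Kit, Ldha, Lyz2, Mki67, Ms4a6b, Myc, Ncr1, Nefh, Pim1, Pisd-ps1, Serpine2, Slc35e4, Smad3, Synj2, Tcn2, Tgfbr2 and Wdfy1 are named outside this rule, after their values were seen. The members and lists were chosen with earlier results of these data known. Replicate numbers are not stated to mark a shared animal or day, so no pairing was used. Deviations of same-numbered libraries correlated at -0.07 for IL-6 with hyper-IL-6 and at -0.16 for IL-6 with the IL6Ra-/- culture. Both values include libraries that went against their labels, so they cannot show whether an animal or day was shared. The transfer libraries of the series were not used here.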

Additional observations from a re-analysis of the deposited data

How the results depend on the processing

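With 2 libraries a group, the 95% interval of the difference lay within 2-fold for 71.4% and within 1.5-fold for 57.8% of the genes tested, and for the others the data do not bound it that closely. The count of genes called between hyper-IL-6 and IL-6 was 0 by edgeR under RLE and upper-quartile scaling, a stricter filter, a minimum fold of 1.5, a threshold of 0.01, the compared groups only and the 3 cultured groups only. Leaving out 1 of the 4 compared libraries gave a range of 0 to 0. With the replicate block, which assumes that equal numbers pair the libraries, it was also 0 in both fits. At an unadjusted p under 0.05 the edgeR fits with all 4 libraries and TMM scaling held 138 to 413 genes, apart from 69 with the minimum fold and 493 with no filter. Without a filter on low counts edgeR called 36 genes, 14 higher and 22 lower, with the prior degrees of freedom estimated as infinite, so that each gene was given the spread of the trend. DESeq2 called 5 genes over all 5 groups and 25 on the compared groups only, of which 4 were shared. Without the doubted libraries labelled IL-6 replicate 2 and IL6Ra-/- replicate 2 the count was 0 over the 5 groups and 124 by edgeR and 74 by DESeq2 on the 3 cultured groups, where 1 residual degree of freedom remained, and without the former alone it was 0 on the 3 cultured groups. Of the 5 genes that DESeq2 called over all groups, 4 were among the 124. Against the 4 other cultured libraries, edgeR called 0 in both fits and DESeq2 29. Genotype markers numbered 0 in the main fit and under RLE scaling and the replicate block, 19 with no filter on low counts, 2 by DESeq2 and 2 on the 4 naive libraries only. No named gene reversed a call. Over 203 named genes and all settings, the sign of an uncalled difference changed in 165 cases, in 63 genes. Where calls or counts moved, the cause was not tested beyond what these fits show.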
